A study of Pinus pinaster with 24 samples.

Results

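The 6 libraries described here are the control needles and control cotyledons of maritime pine (Pinus pinaster) seedlings, 3 libraries of each, out of 24 libraries in the series. They were taken by their labels, as the libraries of the later leaves and of the seed leaves from seedlings watered with KCl. Every seedling of the series was 4 months old, of the Segura-Alcaraz provenance, and short of sulfur: from 1 month after germination it had received 0.3 mM KNO3 each week for 3 months and no sulfate. Control seedlings were then given 1 mM KCl and sampled 24 h later. Needles and cotyledons of seedlings given 0.5 mM K2SO4 instead (3 libraries of each), and the control stem and roots (3 libraries of each), serve below as further measurements. Each library came from pooled tissue of 13 to 14 seedlings of a single provenance, and the p-values measure the spread between 3 such pools.

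Cotyledons are the leaves preformed in the seed embryo. In pines they draw on the stored reserves of the seed at germination and then turn green and photosynthesise. Needles are the leaves the shoot apex makes afterwards, and they take over as the cotyledons age. Sulfate enters a plant through the roots and is reduced mainly in the plastids of leaves, where sulfur goes into cysteine, methionine and glutathione.

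RNA was enriched for poly(A) and read as pairs of 150 bp, and the deposited table lists 67271 transcript features with their level in every library, as CPM of a library size that the authors scaled (normalized CPM below). These levels are per read and not per transcript length, so the text compares a feature between organs, and where features are ranked the ranking is by reads. Reads per library were 134863358, 102312538 and 98043091 in needles and 195881948, 99866938 and 97066476 in cotyledons. Spearman correlation across features was 0.970 to 0.982 within the needle libraries and 0.974 to 0.987 within the cotyledon libraries. Since the files pair no gene name with an identifier, no gene function, no gene list and no marker of leaf, vascular or storage tissue could be looked up, and the organ labels could not be checked against markers. In RNA from whole organs, a smaller number of cells of a type and less RNA per cell cannot be told apart.

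Needles and cotyledons of the starved seedlings differed in 27046 of 59062 tested features (45.8%), by modest amounts in most and by large amounts mainly towards the needles. A feature was tested where 3 or more of the 6 libraries reached a value of 1. Of these, 13816 (23.4%) were higher in needles and 13230 (22.4%) were higher in cotyledons (limma on log2(value + 0.5), Benjamini-Hochberg adjusted p under 0.05). The counts in both directions were close at this threshold and filter. With a minimum value of 5 they were 6556 and 10054, and tested against a 2-fold difference they were 3308 and 754. Among called features the median log2 difference was 0.96 for those higher in needles and -0.56 for those higher in cotyledons. A difference of at least 4-fold was called for 2206 features higher in needles (3.74% of those tested) and for 812 higher in cotyledons (1.37%). These last counts were 3824 and 1234 with DESeq2 and 747 and 346 with a pseudocount of 2. At 16-fold or more the counts were 297 and 38, and at 64-fold or more they were 40 and 0. Fold changes are on the log2(value + 0.5) scale, which understates the change of features at low levels.

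Most of the transcriptome lay within a factor of 2 in both leaves. The absolute log2 difference had a median of 0.34, and 82.8% of the tested features differed by less than 2-fold. The spread between pools was small, with a median SD of 0.142 log2 units in needles and 0.136 in cotyledons. In 58.3% of the tested features the 3 needle values and the 3 cotyledon values did not overlap, and 45.5% were called and had no overlap.

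The largest needle difference belonged to PpCO2_162176. Its level was 316, 314 and 346 normalized CPM in the 3 needle control libraries and 0 in each of the 3 cotyledon control libraries. All needle values thus lay far above a cotyledon group without a single read. The log2 difference was 9.35 with a standard error of 0.077 (limma, Benjamini-Hochberg adjusted p = 1.83e-08), and needles were at least 12024-fold higher when each cotyledon library is set to a floor of 3 reads. The feature passed the filter through the 3 needle libraries alone, and the cotyledon values of 0 add no spread to the standard error. The size of the log2 difference rests on the pseudocount: it was 11.7 with 0.1 and 7.35 with 2. In the other organs the feature was close to absent too, at a mean of 0.0255 in control stem and 0.0459 in control roots. The needle libraries given sulfate had 421, 299.9 and 296, and the cotyledon libraries given sulfate had 0, 0 and 0.0644.

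The second, PpCO2_67502, stood at 179, 138 and 168 normalized CPM in needles and at 0.236, 0 and 0 in cotyledons. Only the deepest cotyledon library held reads of it, and the groups were far apart. The log2 difference was 8.15 with a standard error of 0.18 (limma, adjusted p = 6.84e-07), and the ratio of the means was 2059. Stem averaged 0.279 and roots 0.0398, so this feature too was marked by needles among the 4 organs sampled. With sulfate the needle minus cotyledon difference was 8.16.

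The other 6 of the 8 largest needle differences followed the same pattern. Over all 8 the log2 difference was 7.11 to 9.35, the needle mean 79.3 to 325, and the cotyledon mean 0 to 0.0997 normalized CPM. All 8 thus passed the filter through the needle libraries alone, the group in which they are high. Their means were at most 0.279 in control stem and at most 0.600 in control roots. All 8 were also called in the sulfate libraries, with log2 differences of 6.85 to 9.33, beside 15.6% of all features tested there called higher in needles. The naming rule kept at most 1 feature per run of neighbouring identifiers, so these 8 do not count close copies several times over where neighbours had correlated levels.

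The largest cotyledon difference was that of PpCO2_50721. Needles held 1.53, 3.82 and 3.87 normalized CPM, and cotyledons held 294, 36.9 and 426. The groups did not overlap, but cotyledon control 2 lay far below the other 2 cotyledon libraries and needle control 1 below the other 2 needle libraries. The log2 difference was -5.63 with a standard error of 0.91 (limma, adjusted p = 0.0034), and the ratio of the means was 82.0 in favour of cotyledons. Without cotyledon control 2 the difference was -6.71, and without cotyledon control 3 it was -4.96. Control stem averaged 1.48 and control roots 9.25, so the roots held more of it than the needles. In the sulfate libraries the difference was -6.48.

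PpCO2_8037 came next. It stood at 0.684, 1.44 and 0.981 normalized CPM in needles and at 115, 15.6 and 165 in cotyledons. Again the second cotyledon library was the lowest of its group and still above every needle library. The log2 difference was -5.49 with a standard error of 0.84 (limma, adjusted p = 0.0028), and cotyledons were 95.2-fold higher by the means. It was -6.52 without cotyledon control 2 and -4.84 without cotyledon control 3. The sulfate libraries gave -5.65.

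Over the 8 largest cotyledon differences, the log2 difference ran from -5.63 to -4.70, with cotyledon means of 25.7 to 252 and needle means of 0.394 to 5.94 normalized CPM. All 8 were lowest in cotyledon control 2 among the cotyledon controls and lowest in cotyledon sulfate 2 among the cotyledon sulfate libraries. The third of the 8 has a number close to PpCO2_8037, just beyond the gap of 2 that joins a run. It held 245, 34.9 and 362 in the cotyledon controls, so the 8 may not be 8 separate cases. All 8 were called in the sulfate libraries, beside 15% of all features tested there called higher in cotyledons. Stem stayed at 1.54 or below in each, while the root means ranged from 0.00282 to 26.0. The 8 features marked by needles thus averaged at most 0.600 in any other control organ. The 8 marked by cotyledons averaged 0.394 to 5.94 in control needles, so these ranges overlap at their ends.

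**Figure D1:**
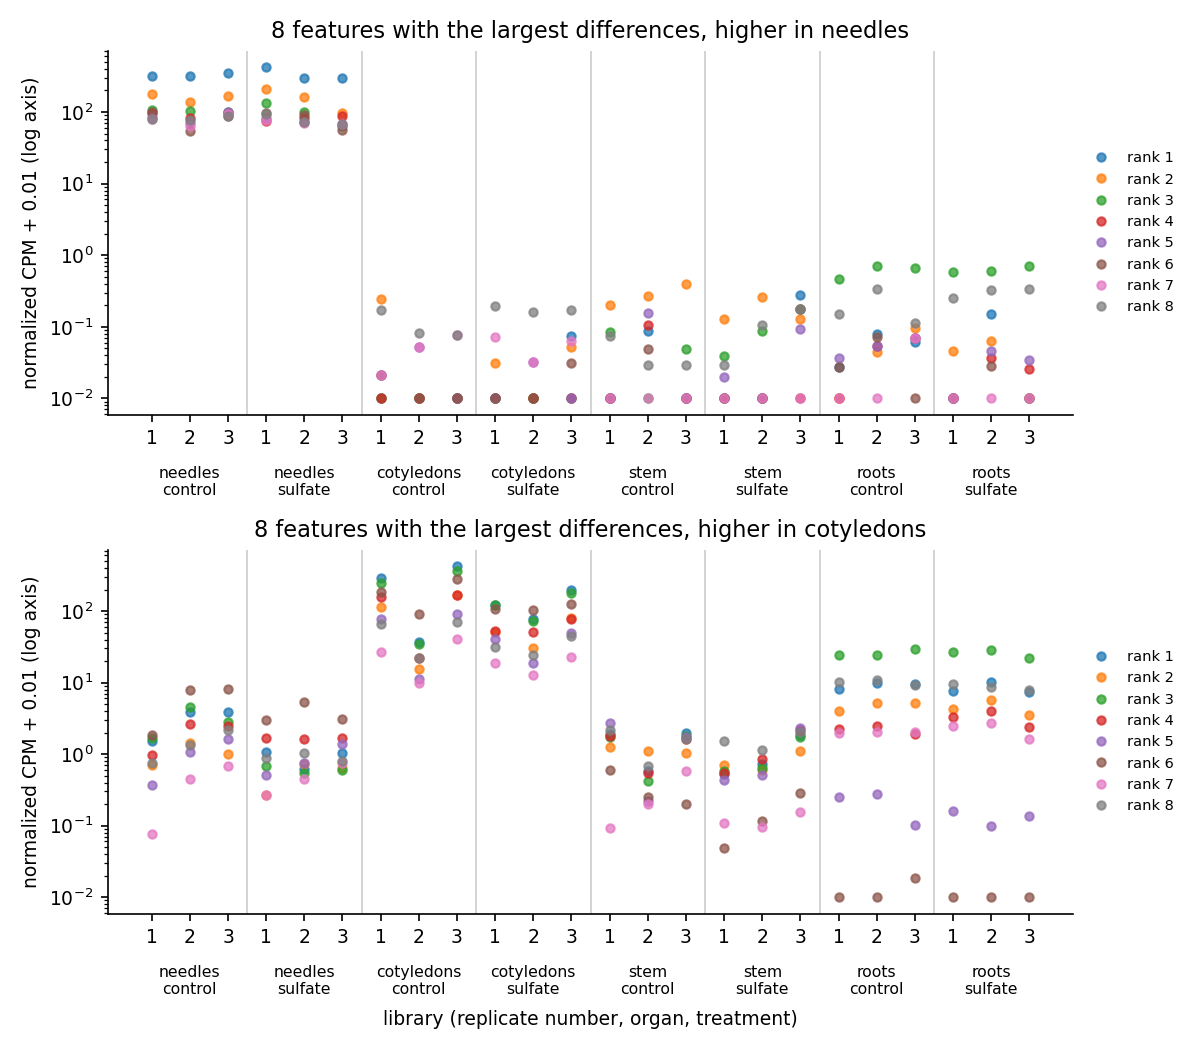
Level of the 8 features with the largest needle difference (top) and the 8 with the largest cotyledon difference (bottom) in each of the 24 libraries, as normalized CPM plus 0.01 on a log axis, so that a value of 0 sits at 0.01. In the top panel the needle libraries stand alone. In the bottom panel the cotyledon libraries stand above the needles, with replicate 2 of both treatments the lowest of its group.

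Large cotyledon differences varied more between the libraries of the higher leaf than large needle differences did. Of the 812 features at least 4-fold higher in cotyledons, 602 (74.1%) were lowest in cotyledon control 2 among the 3 cotyledon libraries, against 36.3% of all features tested. Their median level was 14.7, 7.78 and 14.7 normalized CPM in cotyledon controls 1, 2 and 3. Among the needle libraries, 606 of them (74.6%) were lowest in needle control 1, against 37.0% of all features. The needle medians were 0.853, 1.59 and 1.72, so the lowest needle library and the lowest cotyledon library had different replicate numbers.

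A difference of at least 4-fold between cotyledon libraries was found in 206 of the 812 features (25.4%, against 2.15% of all). Of the 2206 features at least 4-fold higher in needles, 7 (0.317%, against 1.19% of all) varied as much between needle libraries. In the lower leaf of each set the counted shares were closer. Between cotyledon libraries 261 of the 2023 needle features with a cotyledon read varied at least 4-fold (12.9%, against 2.15% of all). Between needle libraries 191 of the 812 cotyledon features did (23.5%, against 1.19%). A feature at 0 in a library of the group had no ratio and was counted as not varying. The shares of the lower leaf are therefore minimum shares, and the 2 sets cannot be ranked by them. Without cotyledon control 2 the median log2 difference of the 812 was -2.77 in place of -2.49, and 804 of them were called. Without needle control 1 it was -2.32, and 723 were called. Leaving out any 1 of the 6 libraries left 690 to 804 of the 812 and 2194 to 2206 of the 2206 called. Cotyledon sulfate 2 was likewise the lowest of its group in 620 of the 812 (76.4%, against 34.2% of all). The part of cell makeup, age or sampling in these library differences was not tested.

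The direction of the difference depended on how many reads a feature had. Features under 5 normalized CPM were more often called higher in needles than higher in cotyledons, and features from 5 to 100 more often higher in cotyledons. Of 9118 features with a mean under 2 normalized CPM over the 6 libraries, 44.7% were called higher in needles and 8.68% higher in cotyledons. From 2 to 5 the shares were 23.7% and 16.0% of 17236 features. From 5 to 20 the order turned, with 17.5% and 26.7% of 21327. It was widest from 20 to 100, at 15.1% and 35.9% of 9899 features.

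Among the 1482 features with a mean of 100 or more, 28.8% were higher in needles and 29.5% in cotyledons, and which share was larger depended on the test: the quasi-likelihood test of edgeR, run on recovered reads, gave 30.6% and 26.9%, and plain CPM gave 30.3% and 33.8%. The order in the lower 4 classes was the same with plain CPM, TMM, edgeR and the replicate number as a block, and without needle control 1 or cotyledon control 2. Large differences were also spread unevenly: 647 features under 2 were at least 4-fold higher in needles and 51 in cotyledons, while from 20 to 100 the counts were 145 and 145. In the 6 sulfate libraries, 26.5% of features under 2 were higher in needles and 10.9% in cotyledons, and 12.04% and 20.5% from 20 to 100. The level classes were set after the data had been seen, and the filter admits a low feature through the organ in which it is high.

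**Figure D2:**
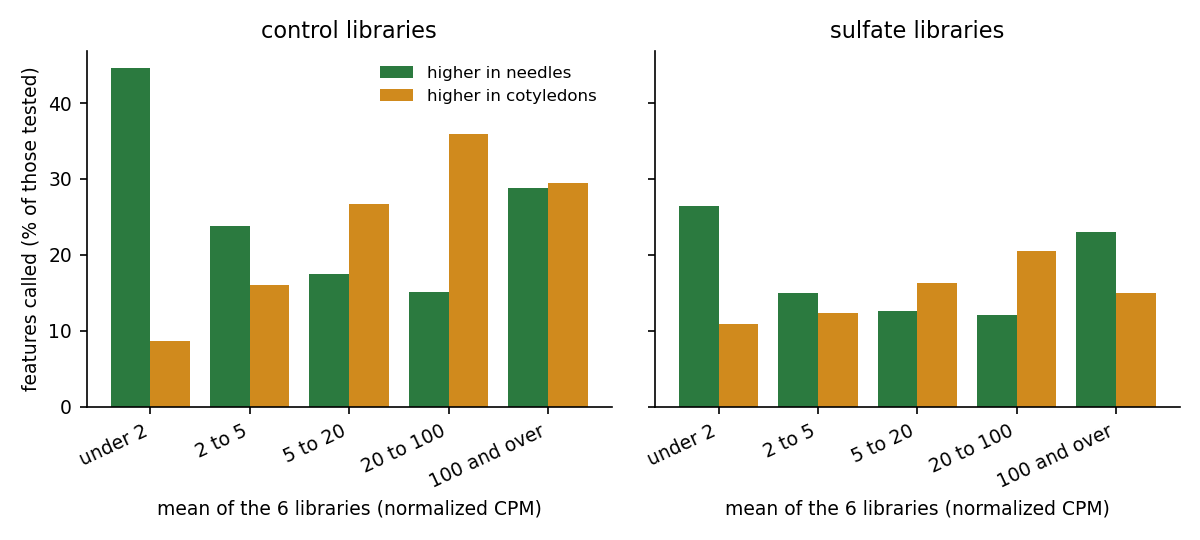
Share of the tested features called higher in needles (green) or in cotyledons (orange) by the mean level of the 6 libraries in normalized CPM, for the control libraries (left) and the sulfate libraries (right). The needle share is larger in the 2 lowest classes and the cotyledon share is larger from 5 to 100.

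Needles held more features at a value of at least 1, and a larger part of their reads came from few of them. Values of at least 1 normalized CPM were found for 57651, 59184 and 58764 features in the needle libraries and for 53894, 54145 and 53744 in the cotyledon libraries. No needle library came near a cotyledon library by this count. The means were 58533 ± 792 and 53928 ± 203 (SD, n = 3 each; exact two-sided permutation p = 0.1, the smallest that 3 against 3 allows). The deepest library of the 6 was a cotyledon library, and it did not have the most detected features. At a value of at least 5 the counts were close, at 32534 ± 493 and 32060 ± 271 (exact permutation p = 0.3).

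The 100 features with the most reads took 14.2, 11.9 and 13.4% of the reads in needles and 10.2, 10.1 and 10.3% in cotyledons. Every needle library was above every cotyledon library, again at the smallest possible exact permutation p of 0.1. Features at 100 normalized CPM or more were fewer in needles, 1411 ± 106 against 1578 ± 44 (SD, n = 3 each; exact permutation p = 0.1). In the sulfate libraries the same count was 1494 ± 156 against 1540 ± 11 (exact permutation p = 1), while the share of the 100 features was 13.01% ± 1.27 against 10.4% ± 0.49 (exact permutation p = 0.1).

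The leaves shared most of their abundant features. Of the 100 with the highest mean, 70 were the same in needles and cotyledons, and of the 1000 highest, 764. Of the needle 100, 71 were called higher in needles and 7 higher in cotyledons, beside 23.4% and 22.4% of all features tested. Of the cotyledon 100, 42 were called higher in needles and 29 higher in cotyledons. Each list was picked by its own organ's level, which favours calls in that direction, so it is the cotyledon list, with more calls towards needles, that goes against its choice. In the sulfate libraries 30 of the cotyledon 100 were called higher in needles and 20 higher in cotyledons, beside 15.6% and 15% of all features tested there. Among features with a mean of 100 or more, 28.8% were called higher in needles and 29.5% higher in cotyledons in the control libraries. In the sulfate libraries these shares were 23.1% and 14.9%.

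The abundant features of the leaves were scarce in roots. Over the needle 100 the median level was 1074 normalized CPM in needles, 808 in cotyledons, 93.9 in stem and 5.003 in roots, and 66 of them had a root mean under a 32nd of the needle mean. Over the cotyledon 100 the medians were 1074, 929, 187 and 19.2 in the same order. Since the lists were chosen for their level in leaves, lower medians elsewhere are in part a result of that choice.

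The gaps that moved most reads were small as ratios. The 4 called needle features with the largest gap on the linear scale had needle means of 2619 to 4028 and cotyledon means of 1162 to 2424 normalized CPM, a log2 difference of only 0.72 to 1.16. Their root means were 1.27 to 5.97. These calls were less firm than those above. In the sulfate libraries 2 of the 4 were called, beside 15.6% of all features tested there called higher in needles. The feature with the largest gap was not called without needle control 3 or without any 1 of the cotyledon controls (adjusted p of limma up to 0.0626). The third was not called without needle control 3 or cotyledon control 1 (up to 0.0635), and the second lost its call in wider fits of 12 control libraries (0.196) and of all 24 (0.0995). The 4 cotyledon features of this kind had cotyledon means of 1426 to 3327 and needle means of 643 to 1552, with log2 differences of -1.46 to -1.16. All 4 were called in the sulfate libraries, beside 15% of all features tested there called higher in cotyledons. Their root means ran from 4.57 to 854, so abundant in cotyledons did not mean confined to leaves.

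Stem and roots placed the 2 groups of large differences differently. Among the 2206 features at least 4-fold higher in needles, the cotyledons had the lowest mean of the 4 organs in 1901 (86.2%, against 27.7% of all features tested), and the needles had the highest mean in 835 (37.9%, against 19.6% of all). Among the 812 features at least 4-fold higher in cotyledons, the cotyledons had the highest mean of the 4 organs in 769 (94.7%, against 33.6% of all). The order of the 2 leaves is fixed by the choice of these sets, while the stem and root levels did not enter it. The shares over all features carry no such choice, so part of each gap to them is built in.

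Where needles were at least 4-fold higher, the stem lay closer to needles than to cotyledons in 69.8% of features, on the log2 scale. The roots did so in 71.3%. Over all features tested, the stem lay closer to whichever leaf was higher in 47.5%, and the roots in 46.2%. The shares of all features closer to needles, or closer to cotyledons, were not counted. Where cotyledons were at least 4-fold higher, the stem lay closer to the cotyledon level in 9.11% and the roots in 20.3%. Levels across organs rest on the authors' scaling, which differs most for roots. Under plain CPM the stem shares were 70.9% and 11.1% and the root shares 73.3% and 24.3%. The shares of all tested features closer to the higher leaf moved more, to 59.7% for stem and 62.4% for roots.

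The needle set fell mainly into a pair of kinds. The kinds were set after the data had been seen, and their shares over all tested features were not counted. In 1425 of the 2206 features (64.6%) both stem and roots lay near the needles, with median levels of 5.85 normalized CPM in needles, 0.390 in cotyledons, 12.2 in stem and 10.5 in roots. A low cotyledon level is part of how this kind is defined. In 520 features (23.6%) both stem and roots lay near the cotyledons, with medians of 7.20 in needles, 0.0666 in cotyledons, 0.0470 in stem and 0.0551 in roots. A high needle level against stem and roots is likewise part of the definition. A further 114 were shared with stem only and 147 with roots only.

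By the same rule, also without shares over all tested features, the cotyledon set was mostly of a single kind. In 611 of its 812 features (75.2%) stem and roots lay near the needles, with median levels of 1.74 in needles, 14.1 in cotyledons, 0.653 in stem and 0.702 in roots. Roots alone shared the cotyledon level in 127, stem alone in 36 and both in 38.

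**Figure D3:**
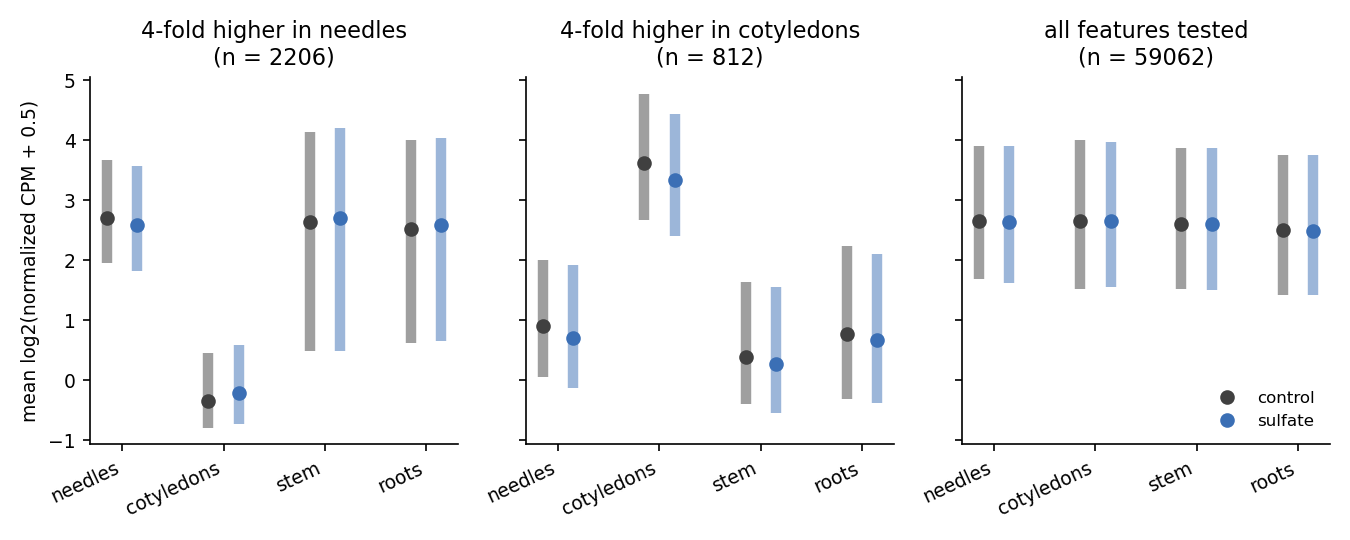
Median (points) and middle 50% (bars) of the mean log2(normalized CPM + 0.5) in needles, cotyledons, stem and roots, for control (dark) and sulfate (blue) libraries, over the 2206 features 4-fold higher in needles, the 812 features 4-fold higher in cotyledons and all 59062 tested. In the left panel the cotyledon medians are the low ones, and in the middle panel they are the high ones.

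As a share of all reads, the large needle differences were a small part of the leaf but a larger part of the other organs. The 2206 features took 2.54, 2.55 and 2.74% of the reads in needles and 0.191, 0.228 and 0.179% in cotyledons. In control stem they took 4.17% ± 0.08 and in control roots 3.74% ± 0.15 (SD, n = 3 each), more than in the needles by which they were chosen. The 812 features took 2.34, 1.68 and 2.74% of cotyledon reads and 0.203, 0.317 and 0.351% of needle reads. Stem and roots held 0.295% ± 0.014 and 0.393% ± 0.018 of the latter.

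Sets chosen in the sulfate libraries measured the same thing in control libraries that had no part in the choice. The 1728 features at least 4-fold higher in needles with sulfate took 2.46, 2.39 and 2.63% of the control needle reads and 0.200, 0.233 and 0.182% of the control cotyledon reads. The 806 chosen for cotyledons took 2.30, 1.51 and 2.77% of control cotyledon reads and 0.169, 0.311 and 0.371% of control needle reads. In both sets the groups were far apart, and cotyledon control 2 and needle control 1 were again the lowest of their groups in the cotyledon set.

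**Figure D4:**
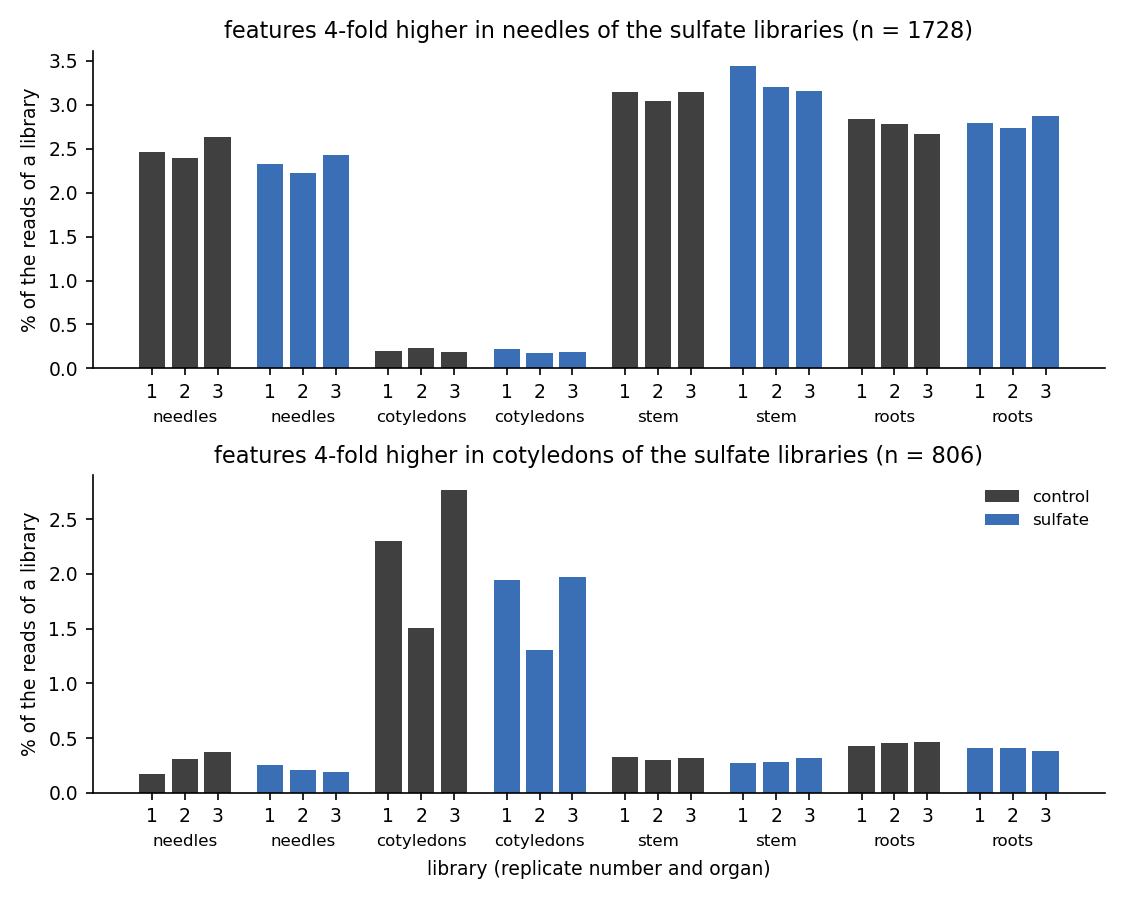
Share of a library's reads, in percent, taken by the 1728 features at least 4-fold higher in needles (top) and the 806 at least 4-fold higher in cotyledons (bottom) of the sulfate libraries, 1 bar per library, control dark and sulfate blue, with the replicate number under each bar. In the top panel the cotyledon bars are the only low ones. In the bottom panel the cotyledon bars are the only tall ones, and replicate 2 is the shortest of each trio.

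Complete absence was found only on one side. Of the tested features, 193 had 0 reads in all 3 cotyledon control libraries, and all 193 were called higher in needles, while no tested feature had 0 reads in all 3 needle control libraries. The filter asks for a value of at least 1 in 3 libraries, so a feature at 0 in one leaf had to reach it in every library of the other, and its call is in part set by that. The 193 formed 121 runs of neighbouring identifiers, with a median needle level of 4.13 and a highest of 325 normalized CPM. With sulfate, 117 of them again had 0 reads in all 3 cotyledon libraries, and the other 76 had at most 34 reads there. Stem reached a mean of 1 in 36 and roots in 53, while 117 were under 0.1 in both. A count of 0 in a library allows a level of up to 0.0165 to 0.0334 normalized CPM, by counting error only. This treats reads as independent, and the level is higher where both mates of a pair are counted.

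Features with neighbouring numbers tended to move together. Of 13604 pairs of tested features with consecutive numbers that were both called, 93.5% had the same direction, and of 1186 such pairs that were both at least 4-fold, 99.4% did. Runs are narrower, since their members were joined by correlated levels. Runs held 80.9% of the needle set and 75.1% of the cotyledon set, against 71.3% of all tested features. Counted once per run, the sets were 1112 and 461.

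The run with most members of the needle set had 13 features, all called, with log2 differences of 4.30 to 6.82. Their summed level was 1008, 601 and 774 normalized CPM in needles and 19.7, 4.76 and 11.4 in cotyledons. The run with most members of the cotyledon set had 16 features, all called, with log2 differences of -4.56 to -1.91. Their summed level was 311, 139 and 337 in cotyledons and 16.0, 28.1 and 27.7 in needles. Here too cotyledon control 2 was the lowest cotyledon library, at a level still above all needle libraries. How the authors' counting dealt with reads that match several close copies is not known, so the single members of a run are uncertain.

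Many features were measured as alike in both leaves, and on the authors' scaling these were more often alike across the plant too. For 19275 features (32.6%) the 95% interval of the log2 difference lay between -0.5 and 0.5. Of these, 57.2% also had stem and root means within 0.5 of the leaf mean, against 36.3% of all tested. They took 34.3% of needle reads and 35.9% of cotyledon reads, and their median level was 9.26 normalized CPM against 5.96 over all tested. The 4 with the most reads had needle means of 256 to 320 and cotyledon means of 263 to 324, with log2 differences of -0.05 to 0.02, and stood at 203 to 394 in stem and 267 to 364 in roots. In the sulfate libraries 727 of 19238 tested (3.78%) were called, beside 30.6% of all features tested there, and 99.1% of the estimates were under 0.5 in size, against 69.9% of all.

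The large differences were found again in the sulfate libraries, which come from other pools of seedlings. Of the 2206 needle features, 2152 passed the filter there, 2146 were called higher in needles, 0 were called the other way and 1657 were at least 4-fold. The background was 9065 of 58262 features called higher in needles (15.6%) and 8762 called higher in cotyledons (15%), and a difference of at least 4-fold was called for 2.97% and 1.38%. Of the 812 cotyledon features, 795 were tested, 776 were called higher in cotyledons, 0 the other way and 606 were at least 4-fold. Of all called features the share called again was lower, 8243 of 13816 for needles and 7103 of 13230 for cotyledons, which is 59.7% and 53.7% of the control lists and 90.9% and 81.1% of the sulfate lists. A single feature was called in opposite directions. Over the 57600 features tested in both, the log2 differences had a Pearson correlation of 0.952 across features, which are not independent replicates.

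**Figure D5:**
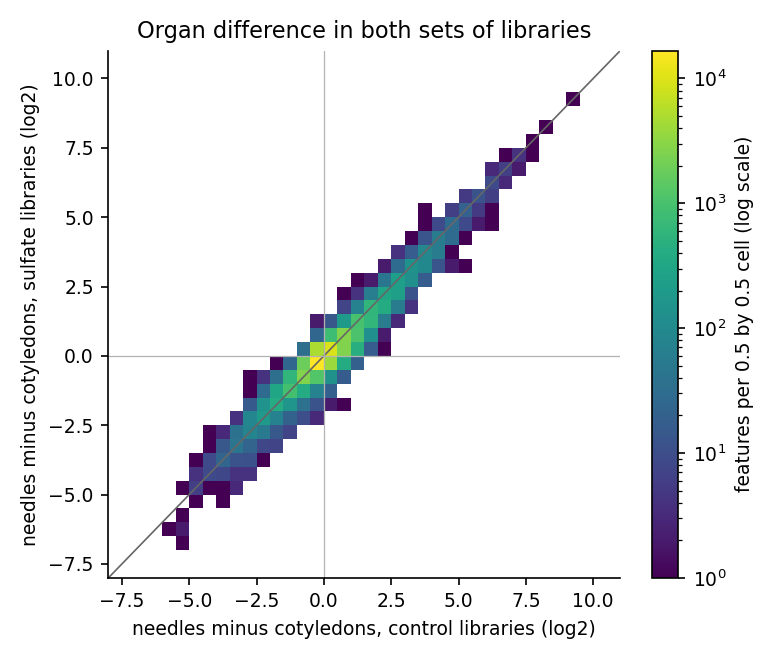
Needle minus cotyledon log2 difference in the sulfate libraries (vertical) against the control libraries (horizontal), as the number of features per cell of 0.5 by 0.5 on a log colour scale, with the line of equality in grey. The features lie along the line, and the needle end reaches farther than the cotyledon end.

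A test of the change itself asked whether 24 h of sulfate altered the difference between the leaves. Of 60718 features in a fit of the 12 leaf libraries, 1 had a changed difference (0.00165%; limma, Benjamini-Hochberg adjusted p under 0.05), and 2539 (4.18%) had an unadjusted p under 0.05. On recovered reads edgeR's quasi-likelihood test called 0, with 2833 unadjusted, and DESeq2 called 87. The 1 feature, PpCO2_98080, stood at 2.73, 4.02 and 5.89 normalized CPM in the needle controls and at 0 in every other leaf library and in control stem. It passed the filter through those 3 needle libraries alone, the group that makes the difference. Its call rested on the choice of test and on single libraries, with an adjusted p of 0.0160. The number of pools limits what this comparison can show. With simulated reads, changes of 1 log2 unit in the organ difference were recovered in 30% of cases and changes of 2 units in 82%. That simulation held 200 changed features. With only 1 call in the data, the Benjamini-Hochberg cutoff was stricter there, so these shares may be too high for the data.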

How the data were processed

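RNA of 24 libraries (4 organs, 2 treatments, 3 pools each) was sequenced as paired reads. Per the submitters' processing notes bcl2fastq and BWA were used; for their versions, the counting tool, the reference and the scaling the entry is: not given in the sources used here. Deposited values, presented as CPM, do not sum to 1000000 per library, so they were taken as a signal that the authors made by scaling library sizes before computing CPM, with implied factors of 0.900 to 0.978 in control needles and 0.926 to 0.958 in control cotyledons. The design had assumed plain CPM, and the test is the same. The deposited values of each library are whole multiples of one step (100% within 0.01 of a step), which gave the reads; in needle control 2 that step is close to 0.01, where rounding could act, yet 0.01 itself divides only 2.78% of its values above 0. Of values of 1 to 20 reads, 57.9 to 69.9% were even, as when each mate of a pair is counted. Floors cover counting error only and treat reads as independent. Where both mates of a pair are counted, a floor of 3 reads is too low and the fold bounds are too high. Intervals of the log2 difference come from the limma fit and measure the spread between pools. Nothing says that the library kit kept strand.

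Groups and replicate numbers came from the labels. Replicate libraries of the 2 control groups had a chi-square per feature of 27.0 to 63.4 between them, above sampling noise. Features that reached a value of 1 in 3 or more of the 6 libraries were tested with limma 3.58.1 (lmFit, then eBayes with trend and robust set) on log2(value + 0.5), in R 4.3.3, and called at a Benjamini-Hochberg adjusted p under 0.05. The interaction used 12 leaf libraries. Fits that leave out a library kept the tested features. Alternatives were edgeR 4.0.16 and DESeq2 1.42.0 on recovered reads, other scalings, filters and pseudocounts, wider fits and the replicate block. Runs join identifiers whose numbers lie within 2 of each other and whose levels correlate at over 0.8 (Pearson) across 24 libraries. A feature of stem or roots counts as near the leaf whose mean log2 level is closer.

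Features were named by rule: the 8 largest log2 differences in each direction (called, no overlap, and 2 or more as the mean of the higher leaf), the 4 largest gaps in level, the 4 most abundant with a 95% interval within 0.25, the 2 changed most by sulfate, and the 2 most abundant at 0 in the other leaf, at most 1 per run. Identifiers are printed for the 2 largest in each direction and for the interaction. The members, rules and lists were chosen with earlier results of these data known. Gene lists and cell type markers were planned but could not be matched, because the identifiers are not paired with names in the files; no genome was used here.

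In the control libraries, deviations from the group means correlated at 0.273, 0.188 and 0.398 for the same replicate numbers. All were over 0.1, the value taken here to pair libraries, across features that are not independent. In the sulfate libraries the values were 0.477, 0.0601 and 0.201. The labels do not say whether same-numbered organs came from the same seedlings. The main fit used no pairing, and the replicate block was run as an alternative. On simulated reads with 200 changed of 57921 features, the control comparison recovered 2% of changes of 0.5, 56% of 1, 96% of 2 and 98% of 4 log2 units, and called 31 unchanged features. In the data a far larger share was called (45.8% of those tested), which loosens the Benjamini-Hochberg cutoff. The recovered shares therefore do not carry over to the control comparison itself. Figures were drawn in Python 3.11.15 with matplotlib 3.10.9.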

Additional observations from a re-analysis of the deposited data

Results flagged for a closer look

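The needle minus cotyledon difference of PpCO2_98080 was larger in the control than in the sulfate libraries by 3.18 log2 units, with a standard error of 0.30 (limma interaction test, Benjamini-Hochberg adjusted p = 0.0160 over 60718 features). It was the 1 feature called in that fit, where others called 87 (DESeq2), 12 (a fit of 24 libraries), 2 (no filter on low values) or 0 (edgeR). Its level was 2.73, 4.02 and 5.89 normalized CPM in needle controls 1, 2 and 3 and 0 in the 3 needle sulfate libraries and the 6 cotyledon libraries. It passed the filter on low values through the 3 needle controls alone, so the group that makes the difference also admitted it to the test, and its p is to be read with that limit. The needle controls were at least 156-fold above the cotyledon controls when each of these is set to a floor of 3 reads. Control stem was at 0, and control roots averaged 0.116. The call was lost with edgeR, with a pseudocount of 2, with the replicate number as a block (adjusted p = 0.158) and in 10 of the 12 fits that each leave out 1 library. It was kept without needle control 1 and without needle control 3. Over the fits that leave out 1 library the change was 2.93 to 3.43 log2 units, and the adjusted p reached 0.125.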

How the results depend on the processing

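No called feature named by rule changed direction under the alternatives run; among the values of named features under the alternatives, 594 stayed on their side of the threshold and 29 lost the call, all among the large gaps in level and the interaction. At least 4-fold higher in needles and in cotyledons were 3824 and 1234 features with DESeq2, 747 and 346 with a pseudocount of 2, 1138 and 489 with a minimum of 5, and 1112 and 461 when each run of identifiers is counted once; in needles 3814 were counted with edgeR and 3490 with a pseudocount of 0.1. A minimum of 5 left 6556 features higher in needles and turned the needle share of calls from 51.1% to 39.5%, since it tests fewer low features. The counts of all called features moved most when tested against a 2-fold difference, to 3308 and 754. Once per run, 6340 features were higher in needles and 7008 in cotyledons. With the replicate block the counts were 15162 and 13981, and among named features the block ended no call other than that of the interaction. Leaving out 1 library gave 10869 to 13937 higher in needles, 9144 to 12703 higher in cotyledons, 2180 to 2298 and 633 to 1082 at least 4-fold, and 14773 to 16972 alike. In the sulfate libraries these ranges were 7130 to 9369 and 6161 to 8443; a fit of 24 libraries gave 13491 higher in cotyledons and a minimum of 5 gave 4780 higher in needles. The interaction called 87 features with DESeq2, 12 in a fit of 24 libraries, 2 without trend and robust options, 2 with no filter, and 0 with edgeR, a minimum of 5, a pseudocount of 2 or the replicate block; leaving out 1 library gave 0 to 1. Needles had 4605 more features at a value of at least 1, 2047 more at 0.1 and 474 more at 5, and 4280 to 5046 more with 1 library left out. Under plain CPM the root shares were 73.3% and 24.3%. The cause of these moves was not tested further. The fit of 12 control libraries holds no sulfate libraries, so it gave no value for the sulfate or interaction results, and edgeR and DESeq2 gave no interval for alike features. Counting each run once, splitting by level and grouping by stem and root level were chosen after seeing the data. Depth limits the low features: 1 read was 0.00549 to 0.0111 normalized CPM in the 6 libraries.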
